A study of Mus musculus with 6 samples.

Results

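The 10 transcripts described here belong to the circadian clock and form 2 arms that peak at broadly opposite times of the day. Arntl (BMAL1), Npas2 and Clock are the 3 activators, and Per1, Per2, Per3, Nr1d1, Nr1d2, Dbp and Ciart are the 7 genes of the opposite phase. They were listed by name, with earlier results of these data known, and were matched by Ensembl identifier among the 38355 genes listed. All 10 were among the 17120 genes that passed the filter on low counts. Tef, a close relative of Dbp, is given beside them with the other clock factors.

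All members are protein-coding genes, and counts were taken over their exons. On GRCm38 the activators are annotated as Arntl at chr7:113207465-113314126, Npas2 at chr1:39193731-39363236 and Clock at chr5:76209868-76304792. The Per genes are annotated as Per1 at chr11:69095217-69109960, Per2 at chr1:91415982-91459324 and Per3 at chr4:151003652-151044665, and the other opposite-phase genes as Nr1d1 at chr11:98767932-98775333, Nr1d2 at chr14:18204054-18239127, Dbp at chr7:45705088-45710203 and Ciart at chr3:95878503-95882251.

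RNA of whole cortical tissue from C57BL/6 mice, a common inbred wild-type strain, was sequenced to compare adult with aged cortex. There were 3 samples at 6 months and 3 samples at 16 months, from adult cortical hemispheres frozen after dissection. No transgene or treatment is named for these animals in either age. The methods name chloral hydrate anesthesia in their section on brain preparation, and for these hemispheres they only refer back to earlier steps. The housing text of the labels names the younger age as 3 months, whereas the titles, the age labels and the study's methods give 6 months, which is used here. The methods, in their section on sorted cells, give males as the sex for RNA sequencing. The hour at which the tissue was taken is not given in the sources used here. A difference between ages in clock transcripts and a difference in collection hour therefore cannot be told apart.

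In mammalian cells, BMAL1 pairs with CLOCK or NPAS2 and activates genes through E-box sequences, among them the Per, Cry, Nr1d, Dbp and Ciart genes. The PER and CRY proteins inhibit this pair, the REV-ERB proteins encoded by Nr1d1 and Nr1d2 repress Arntl through ROR elements, and DBP and TEF bind D-box sequences. In cortex and most other tissues, transcripts of the activators and of their E-box targets therefore run broadly out of phase over the day. A shift in phase can thus move the arms in opposite directions, though not every gene need follow its arm.

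Sequence around the annotated starts is shown for members in which one of these elements was found, since the elements define how the arms are linked. RefSeq windows on GRCm38 of 250 bases before to 50 bases after a transcription start were searched on both strands. For the members, 13 windows of 9 genes were available, and Per2 had no window and was not searched. Some members had several windows, whereas the shares of all windows are per single window. The E-box CACGTG occurred in 7.15% of all 32851 windows, the D-box (TTATGTAA or TTACGTAA) in 1.06%, the ROR element (TAGGTCA or TGGGTCA) in 6.45% and the cAMP response element TGACGTCA in 1.79%. Among the members, the E-box was found in 2 genes, Per1 and Ciart, the D-box in Per3 and the ROR element in Arntl. The cAMP response element was found in 0 members. Capitals mark the element, and the stretches run 5′ to 3′ on the strand of the gene:
Per1: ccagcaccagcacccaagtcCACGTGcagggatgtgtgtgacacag
Ciart: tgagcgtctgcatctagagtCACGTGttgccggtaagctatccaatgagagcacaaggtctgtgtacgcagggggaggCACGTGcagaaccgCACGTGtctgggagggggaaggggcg
Per3: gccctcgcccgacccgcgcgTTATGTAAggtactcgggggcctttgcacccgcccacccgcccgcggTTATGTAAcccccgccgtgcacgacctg
Arntl: aaggcagaaagTAGGTCAgggacggaggt

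The Per1 stretch (chr11:69098763-69098808, plus strand) held 1 E-box, beginning at base −166 from an internal start of the gene, and contained 0 bases of annotated exons. The Ciart stretch (chr3:95882247-95882364, minus strand) held 3 E-boxes, at −116, −58 and −44, and reached 5 bases into an annotated exon. The Per3 stretch (chr4:151044796-151044890, minus strand) lay before the annotated gene and held 2 copies of the same D-box, at −205 and −158. The Arntl stretch (chr7:113207530-113207558, plus strand) lay within an exon, with the ROR element at base 31 after the start. These matches describe the letters of the windows only, and the deposited data hold no measurement of binding at them.

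Total counts on genes ranged from 29797253 to 46519280 per sample, and levels are given as counts per 1000000 counts on genes after TMM scaling (CPM). The members had between 203 counts (Ciart) and 7698 counts (Clock) in a sample, far above the 3 counts taken as the floor, which correspond to 0.0645 to 0.101 CPM. A log2 fold change above 0 means a higher level at 16 months, its standard error (SE) comes from edgeR's quasi-likelihood fit, and P values were adjusted over all tested genes by the Benjamini-Hochberg procedure. Summed markers of neighbouring structures were higher in all aged samples. The summed level of 6 thalamic markers was 31.4 to 32.6 CPM at 6 months and 51.5 to 52.4 CPM at 16 months, that of 5 dentate gyrus markers 49.7 to 52.5 CPM against 70.4 to 74.5 CPM, and that of the 4 tested among 5 choroid plexus markers 15.9 to 17.3 CPM against 24.4 to 27.2 CPM. The lowest tested marker of these lists averaged 0.105 CPM (Shox2), 1.92 CPM (Tdo2) and 0.439 CPM (Folr1) at 6 months, while Kcne2 had 3 to 12 counts per sample and did not pass the filter. Markers of the cortex itself were abundant, with 4272 to 4517 CPM and 4449 to 5139 CPM summed over 5 markers of excitatory neurons. Astrocyte markers summed to 5172 to 5515 CPM at 6 months and 5622 to 6374 CPM at 16 months. Those of inhibitory neurons had 793 to 813 CPM against 844 to 898 CPM. The log2 fold change was positive in 4 of these 5 markers and negative in Vip (−0.12). Pvalb is not among these markers, and the paper reports its transcript as lower in the aged cortex. Markers of endothelium summed to 107 to 108 CPM at 6 months and 96.1 to 102 CPM at 16 months. The sums of microglia and striatum were also higher in all aged samples, while those of excitatory neurons and oligodendrocytes overlapped. The test called 5 of the 6 thalamic, 3 of the 5 dentate gyrus and 1 of the 4 tested choroid plexus markers higher, 1 of 5 endothelial markers lower, and 0 of 5 markers each of excitatory neurons, inhibitory neurons, astrocytes, oligodendrocytes, microglia and striatum. Over all tested genes 0.783% were called higher and 0.888% lower. The marker lists were chosen with earlier results of these data known. In bulk tissue, fewer cells of a type and less RNA per cell cannot be told apart. The part of these markers in the clock values was not tested.

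None of the 10 clock genes was called different between the ages. The quasi-likelihood test called 0 members higher, beside 0.783% of all tested genes, and 0 members lower, beside 0.888% of all tested genes. DESeq2 also called 0 members. At an unadjusted P under 0.05 there was 1 member, Npas2, beside 17.4% of all tested genes. The smallest adjusted P was 0.132 with the quasi-likelihood test (Npas2) and 0.121 with DESeq2. The fold changes were small in every member, and the 95% intervals together spanned a ratio of 16 to 6 months of 0.803 to 1.34. Larger age differences than these lie outside the intervals of all 10 members.

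The direction of the differences did not separate the arms. The log2 fold change was positive in 7 and negative in 3 members, and both signs occurred in both arms. Its median was 0.08 over the 3 activators and 0.06 over the 7 opposite-phase genes, 0.07 over all 10 members and 0.0014 over all tested genes. Samples of the ages did not overlap in 2 members that were higher at 16 months, Arntl and Npas2, where 12.2% of all tested genes had this pattern. In 1 member, Per3, all aged samples were lower, a pattern found in 11.5% of all tested genes.

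**Figure D1:**
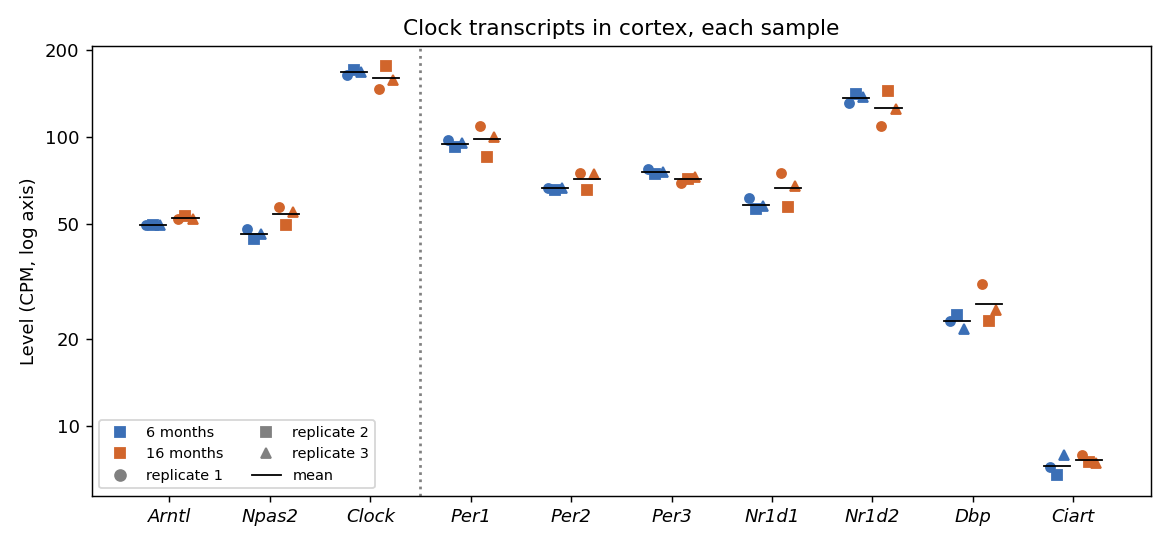
Level of the 10 clock transcripts in each sample (CPM, log axis), with 6 months in blue, 16 months in orange, a symbol for each replicate number and a bar for the mean of 3 samples. The dotted line parts the activators from the opposite-phase genes. The ages overlap in 7 of the 10 genes, and most genes scatter more at 16 months.

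Arntl encodes BMAL1, the partner that both CLOCK and NPAS2 require, and it was the steadiest transcript of the group. Its level was 49.8, 49.8 and 49.6 CPM in replicates 1 to 3 at 6 months and 52.0, 53.5 and 52.0 CPM at 16 months. All aged samples lay slightly above all samples of 6 months. The log2 fold change of 0.08 (SE 0.049, n = 3 per age) was not past the threshold (edgeR's quasi-likelihood test, adjusted P = 0.456). A stretch of 33 bases of its exons, 0.439% of their length, is shared with Gm45355 on the opposite strand.

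Npas2, the activator best known from forebrain neurons, had the largest positive difference among the members. It was measured at 48.3, 44.5 and 46.2 CPM at 6 months and at 57.6, 49.7 and 55.0 CPM at 16 months. The lowest aged sample, replicate 2, exceeded the highest sample of 6 months by little. Its ratio of 1.17 (95% interval 1.05 to 1.29), or a log2 fold change of 0.22 (SE 0.067), gave an adjusted P of 0.132 in the quasi-likelihood test.

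Clock, the most abundant member in CPM, pointed the other way. Its levels were 164, 171 and 169 CPM at 6 months and 147, 176 and 157 CPM at 16 months. The aged samples thus lay on both sides of the 6 months old samples, with replicate 1 lowest and replicate 2 highest of all 6. The log2 fold change was −0.07 (SE 0.068), with an adjusted P of 0.646 by the quasi-likelihood test.

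The Per genes encode the inhibitors that form a complex with the CRY proteins. Per1, which light and signals such as cAMP also induce, had 97.5, 92.4 and 95.2 CPM at 6 months and 110, 85.8 and 100.4 CPM at 16 months. Here too the aged replicates 1 and 2 were the highest and the lowest of the 6 samples, and the log2 fold change was 0.05 (SE 0.082, quasi-likelihood test, adjusted P = 0.780). Per2 had 66.7, 65.9 and 67.0 CPM at 6 months and 75.0, 65.7 and 74.5 CPM at 16 months. In Per2, replicates 1 and 3 at 16 months stood above all other samples and replicate 2 was the lowest of the 6, with a log2 fold change of 0.11 (SE 0.062, adjusted P = 0.401).

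Per3, whose window holds the D-boxes shown above and which is the least required of the Per genes for the rhythm itself, was the only member whose aged samples were all lower. It was measured at 77.8, 74.6 and 75.8 CPM at 6 months and at 69.6, 71.7 and 73.1 CPM at 16 months. The gap between the lowest sample of 6 months and the highest of 16 months was small, and the log2 fold change of −0.09 (SE 0.050) had an adjusted P of 0.391 in the quasi-likelihood test. Per2 and Per3, both targets of the activators, differed in sign. The log2 ratio of Per2 to Per3 was −0.22, −0.18 and −0.18 at 6 months and 0.11, −0.13 and 0.03 at 16 months, so that the ages did not overlap. This ratio was looked at as a description, without a test.

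Nr1d1 and Nr1d2 encode REV-ERBα and REV-ERBβ, nuclear receptors that repress Arntl and Npas2, and their aged samples were ordered in opposite ways. Nr1d1 had 61.4, 56.3 and 57.8 CPM at 6 months and 75.0, 57.5 and 67.6 CPM at 16 months. Nr1d2 had 131, 141 and 138 CPM at 6 months and 109, 145 and 125 CPM at 16 months. Replicate 1 at 16 months was the highest of all samples for Nr1d1 and the lowest for Nr1d2, whereas replicate 2 was the highest for Nr1d2.

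The log2 fold change was 0.19 (SE 0.088) for Nr1d1 and −0.12 (SE 0.090) for Nr1d2, with adjusted P values of 0.304 and 0.547 in the quasi-likelihood test. Their log2 ratio had a mean of −1.23 ± 0.12 (SD, n = 3) at 6 months and −0.92 ± 0.39 (SD, n = 3) at 16 months, and the ages overlapped. Nr1d1 shares 263 exon bases, 8.55% of its exons, with Thra on the opposite strand. The strand setting of the counting is not given in the sources used here, so that reads of this stretch cannot be told apart with certainty. Thra itself had a log2 fold change of 0.09 (adjusted P = 0.515).

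Dbp encodes a transcription factor that drives output genes through D-boxes, and among strongly rhythmic transcripts it is a common reporter of phase. It had 23.1, 24.3 and 21.7 CPM at 6 months and 31.0, 23.1 and 25.3 CPM at 16 months. Replicate 1 at 16 months was well above the other 5 samples, and replicate 2 lay within the range of 6 months. The log2 fold change of 0.20 (SE 0.101) was not past the threshold (quasi-likelihood test, adjusted P = 0.337). Dbp shares 539 exon bases, 18.0% of its exons, with Sphk2 on the opposite strand, and Sphk2 had a log2 fold change of 0.11 (adjusted P = 0.660).

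Ciart (CHRONO), a repressor that acts on the BMAL1 complex and whose window holds the 3 E-boxes, was the least abundant member. It was measured at 7.21, 6.77 and 7.94 CPM at 6 months and at 7.96, 7.50 and 7.47 CPM at 16 months. The ages overlapped, and it was the one member whose samples scattered less at 16 months. Its log2 fold change was 0.06 (SE 0.084, adjusted P = 0.760). A stretch of 460 bases matches Gm9176 at 97% identity or more, so part of its reads may not have been counted as unique.

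Tef, which binds the same D-boxes as Dbp, had 410, 398 and 401 CPM at 6 months and 423, 384 and 394 CPM at 16 months. The samples of both ages overlapped, with a log2 fold change of −0.01 (SE 0.053, adjusted P = 0.944). Its level was far above that of Dbp in every sample, and the log2 ratio of Dbp to Tef, −4.13 ± 0.087 at 6 months and −3.93 ± 0.14 at 16 months (SD, n = 3), overlapped between the ages.

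**Figure D2:**
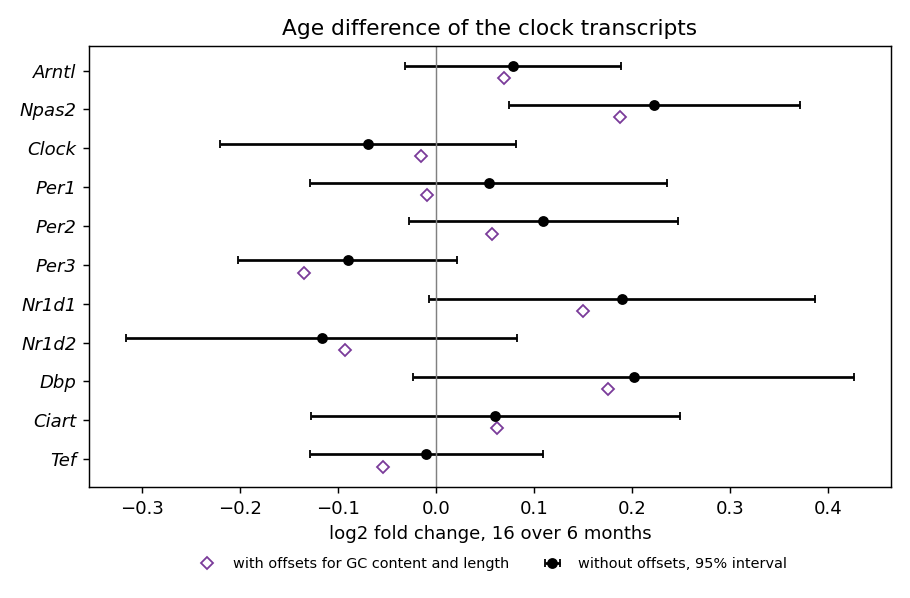
Log2 fold change, 16 over 6 months, of the 10 clock genes and Tef. Filled points and bars are the fit without offsets and its 95% interval, and open diamonds are the values with offsets for GC content and length. Without offsets the interval of Npas2 alone lies clear of 0, from 0.07 to 0.37, before adjustment over all genes.

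Levels of different genes were compared per kb of exon length. At 6 months the order from highest to lowest was Nr1d2 (25.3 CPM per kb), Nr1d1 (19.0), Per1 (16.9), Clock (12.2), Per2 (11.4), Npas2 (9.67), Per3 (7.92), Dbp (7.70), Arntl (6.61) and Ciart (3.23), each a mean of 3 samples in CPM per kb. Of neighbours in this order, only Per3 and Dbp overlapped. At 16 months Nr1d2 (23.3 CPM per kb) and Nr1d1 (21.7 CPM per kb) overlapped, as did Nr1d1 and Per1 (17.5 CPM per kb), Per2 (12.3 CPM per kb) and Clock (11.7 CPM per kb), and Clock and Npas2 (11.3 CPM per kb). In these 2 orders Per2 and Clock changed places, as did Dbp and Per3. Both REV-ERB transcripts led and Ciart stood last at either age.

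The aged samples were more scattered than those of 6 months. The SD of log2 CPM was larger at 16 months in 9 of 10 members, with a median over the members of 0.045 at 6 months and 0.12 at 16 months. Over all tested genes the medians were 0.063 and 0.127, so the same direction was seen in the whole table. Among the members the SD at 16 months ran from 0.024 in Arntl to 0.22 in Dbp. For Arntl and Per3 it was small at both ages.

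The scatter at 16 months followed the base composition of the transcripts. The difference between replicates 1 and 2 of that age was positive in the GC-rich transcripts, with log2 values of 0.42 in Dbp (61.6% GC in the longest transcript), 0.38 in Nr1d1 (56.8%) and 0.35 in Per1 (59.4%). It was negative in the GC-poor ones, with −0.40 in Nr1d2 (41.8%) and −0.26 in Clock (40.9%). Arntl (48.2%) and Per3 (52.4%) had the same difference of −0.04, while Npas2 (52.3%), at nearly the same GC content as Per3, had 0.21. Across the 10 members this difference correlated with GC content with r = 0.952, and across 16904 tested genes with r = 0.636. These correlations run across genes of the same 2 libraries, which are not independent replicates. Across the same genes, the deviation of a sample from the mean of its age correlated with GC content with r = 0.588, −0.582 and −0.0545 in replicates 1 to 3 at 16 months. At 6 months these values were 0.16, −0.13 and −0.023.

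**Figure D3:**
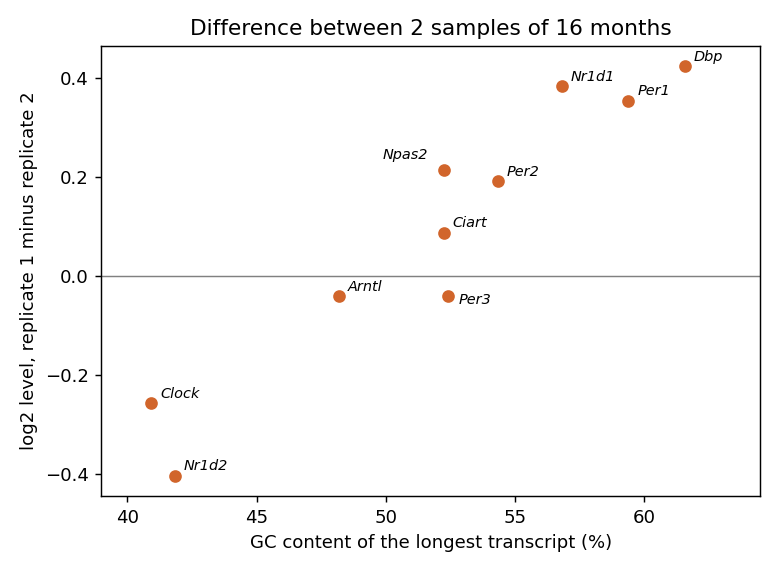
Difference in log2 level between replicates 1 and 2 at 16 months against the GC content of the longest transcript, 1 point for each of the 10 clock genes. The points run from −0.40 (Nr1d2) and −0.26 (Clock) at low GC content to 0.42 (Dbp) at high GC content, with r = 0.952 across these genes.

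Because the order of the aged samples followed GC content, the ages were also compared with offsets that remove the trend of each sample over GC content and length. With these offsets 3 members were called higher at 16 months, beside 7.16% of all tested genes, and 1 was called lower, beside 6.72% of all tested genes. The former were Npas2 (log2 fold change 0.19, adjusted P = 0.00815, quasi-likelihood test), Nr1d1 (0.15, adjusted P = 0.0255) and Dbp (0.18, adjusted P = 0.0334). The latter was Per3 (−0.13, adjusted P = 0.0416). The signs of the other members were kept, except that Per1 went to −0.0094.

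Replicate 2 at 16 months decided several of the values. Without it 4 members were called higher, beside 6.32% of all tested genes, and 1 was called lower, beside 6.40% of all tested genes. These were Npas2 (log2 fold change 0.28, adjusted P = 0.0108, quasi-likelihood test), Nr1d1 (0.28, adjusted P = 0.0144), Per2 (0.17, adjusted P = 0.0407) and Dbp (0.29, adjusted P = 0.0432), and, with a lower level, Nr1d2 (−0.23, adjusted P = 0.0352). Npas2, Nr1d1 and Dbp were thus called higher in both of these settings, and called opposite-phase genes of both signs occurred in either setting. Each call here belongs to a setting in which many more genes of the whole table were called than in the test without offsets on all samples.

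A clock index was formed as the mean log2 CPM of the 7 opposite-phase genes minus that of the 3 activators, so that a shift in phase could change it. The index was −0.58, −0.59 and −0.58 at 6 months and −0.52, −0.69 and −0.59 at 16 months. The mean was −0.58 ± 0.0064 (SD, n = 3) at 6 months and −0.60 ± 0.086 (SD, n = 3) at 16 months, and the difference of −0.02 was smaller than the spread of the aged samples. The aged replicates 1 and 2 again lay on opposite sides of all samples of 6 months. Without replicate 2 at 16 months the difference changed sign, to 0.02.

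With the offsets for GC content and length, which were applied to the index only after its values had been seen, it was −0.58, −0.56 and −0.56 at 6 months and −0.66, −0.60 and −0.60 at 16 months. The ages then did not overlap, with means of −0.57 ± 0.0098 and −0.62 ± 0.035 (SD, n = 3) and a difference of −0.05. Replicate 1 at 16 months went from the highest index to the lowest. No test was made of the index, since its genes were chosen with results of these data known.

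**Figure D4:**
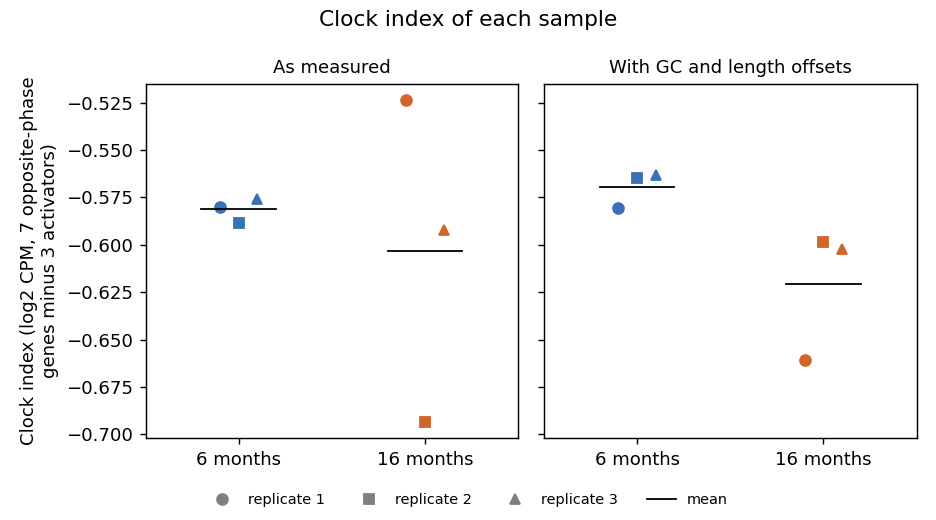
Clock index of each sample, the mean log2 CPM of 7 opposite-phase genes minus that of 3 activators, as measured on the left and with offsets for GC content and length on the right. Symbols give the replicate number and bars the mean of 3 samples. As measured, the 16 months old samples enclose those of 6 months, from −0.69 to −0.52, and with the offsets they lie below them.

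The genes whose levels followed the index most closely over the 6 samples were Dot1l (r = 0.997), Dlk2 (r = 0.997), Plxdc1 (r = 0.995), Hagh (r = 0.995) and Rnh1 (r = 0.994), among 11705 tested genes other than the members with a mean of at least 5 CPM. Those that ran most against it were Mctp1 (r = −0.997), Map4k3 (r = −0.996), Gabra4 (r = −0.996), Opa1 (r = −0.995) and Eif4g2 (r = −0.994). The libraries are shared by all of these values, and the most like genes differed in base composition from the most unlike. The median GC content was 56.9% in the 500 genes most like the index, 43.3% in the 500 least like it and 49.6% in all genes considered. The members, which are parts of the index, did not all follow their arm. Among the activators r was −0.503 (Arntl), 0.294 (Npas2) and −0.771 (Clock). Among the opposite-phase genes r was 0.892 (Per1), 0.553 (Per2), 0.00745 (Per3), 0.606 (Nr1d1), −0.741 (Nr1d2), 0.560 (Dbp) and 0.248 (Ciart).

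Of 12 other clock factors, 0 were called by the quasi-likelihood test and 0 by DESeq2. An unadjusted P under 0.05 was found in 2, beside 17.4% of all tested genes. Among the latter was Arntl2, the paralog of Arntl, with a log2 fold change of −0.20 (adjusted P = 0.263). Bhlhe40, a repressor at E-boxes, was slightly higher in all aged samples (log2 fold change 0.07, adjusted P = 0.471), as were 12.2% of all tested genes. Cry1 and Cry2, the partners of the PER proteins, had values of 0.08 (adjusted P = 0.525) and 0.01 (adjusted P = 0.973). The median over the 12 factors was −0.0055.

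Among 12 kinases, ligases and cofactors that modify clock proteins, 0 were called by the quasi-likelihood test or DESeq2. An unadjusted P under 0.05 was found in 1, beside 17.4% of all tested genes, and the median log2 fold change was 0.05. The ubiquitin ligase genes Btrc (0.07, adjusted P = 0.494) and Fbxw11 (0.11, adjusted P = 0.271) were higher in all aged samples, as were 12.2% of all tested genes. Hdac3, the corepressor of the REV-ERB proteins, was lower in all aged samples (−0.10, adjusted P = 0.360), as were 11.5% of all tested genes. Of 3 output genes, 0 were called by either tool and 0 had an unadjusted P under 0.05. Wee1, a cell cycle kinase driven by an E-box, had 19.3, 18.7 and 18.5 CPM at 6 months and 20.3, 20.8 and 20.2 CPM at 16 months, with a log2 fold change of 0.12 (adjusted P = 0.326).

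Genes that respond to inputs of the clock were compared in the same fit. Their lists were chosen with earlier results of these data known, so the shares given beside them are no test of a list. Of 11 glucocorticoid-induced genes, 5 were called higher, beside the 0.783% of all tested genes, and all 11 had a positive log2 fold change, with a median of 0.27. Plin4 (1.11, adjusted P = 0.000607), Fkbp5 (0.47, adjusted P = 0.0024) and Tsc22d3 (0.51, adjusted P = 0.00472) had the smallest P values. Per1, which also responds to glucocorticoids, was not called. Of 11 activity-induced genes, 0 were called by the quasi-likelihood test and 1 by DESeq2, which called 469 of the 17120 genes that passed the filter. An unadjusted P under 0.05 in the quasi-likelihood test was found in 4, beside 17.4% of all tested genes, and the median was −0.0015. Egr1 (0.23, adjusted P = 0.0882), Egr2 (0.25, adjusted P = 0.145) and Arc (0.26, adjusted P = 0.149) were those with the smallest P values. Of 9 genes that respond to temperature, 1 was called higher, Hspa1b (0.41, adjusted P = 0.0436), followed by Hsph1 (0.26, adjusted P = 0.0638) and Hspa1a (0.47, adjusted P = 0.0766). The log2 fold change was positive in 6 and negative in 3 of these 9, with a median of 0.13. Of the 9, 6 were higher in all aged samples, beside 12.2% of all tested genes. Lower in all aged samples was 1 of the 9, beside 11.5% of all tested genes. The part of these inputs in the clock values was not tested.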

How the data were processed

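Per the labels and the paper, polyadenylated RNA was sequenced as paired-end reads. After trimming (fastq-mcf), the authors used STAR for alignment to mm10 and HTSeq to count reads in Ensembl genes, whereas the submitters' processing notes list CASAVA 1.8.2, STAR 2.3.0e and featureCounts 1.5.0-p1. The deposited values are raw counts per gene, not normalized, followed by summary lines of unassigned reads that were left out of totals and tests. Between 70.8% and 76.5% of uniquely aligned reads lay on a gene.

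Of 38355 genes, 36602 were matched by identifier to GENCODE M21 (GRCm38), which gave names, positions, exon length and GC content. Counts were tested with edgeR 4.0.16 in R 4.3.3 (TMM factors 0.988 to 1.01, filterByExpr, quasi-likelihood test of age without covariates, Benjamini-Hochberg threshold of 0.05, biological coefficient of variation of 6.4%). Log2 CPM used a prior count of 2. The offsets were medians over 20 bins of GC content and of length in each sample, for 98.7% of tested genes. Near-identical copies were searched with blastn 2.17.0 (at least 97% identity over 100 bases), and figures were drawn with matplotlib 3.10.9.

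Each age had 3 samples, grouped by the age in the labels and, per the paper, from 3 brains. The P values and SE rest on the spread between these samples, which edgeR moderates over all tested genes. They are therefore not set by the spread of a single gene alone. The members and all gene lists were chosen with earlier results of these data known. Named genes are the 10 members, Tef, and other clock, modifier and output genes whose ages did not overlap. Also named are the 3 genes with the smallest P of each input list, and the 5 genes most and least like the clock index. Cry1, Cry2, Arntl2, Thra, Sphk2 and Vip were added after their values were seen. The values of 1 of the other clock factors are not reported here. Alternatives were DESeq2 1.42.0 (its size factors and its Wald test), upper quartile factors, other filters, the robust fit, thinned counts, the offsets, the replicate block and fits that each left out 1 sample. The offsets for the index were added after seeing the data. On simulated data with 200 changed genes among 17120, the test of the ages recovered 90% of the genes given a log2 change of 1. Floors cover counting error only, since the libraries had no molecular identifiers.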

Additional observations from a re-analysis of the deposited data

How the results depend on the processing

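The 286 genes called by age became 648 without a filter on low counts, 470 with DESeq2's Wald test, 783 with the replicate block, 2376 with offsets for GC content and length and 3138 with offsets and block, and between 48 and 2211 when each sample was left out in turn. Members called higher, 0 in the test on all samples, numbered 1 with the replicate block, 3 with the offsets and 3 with offsets and block. They numbered 0 to 4 when a sample was left out. Of the 17120 tested genes, 783, 2376 and 3138 were called in either direction with the block, the offsets and both. Members called lower numbered 1 with the offsets and 2 with offsets and block (Per3, −0.14, adjusted P = 0.0213; Nr1d2, −0.10, adjusted P = 0.0306; quasi-likelihood test), and 0 to 1 when a sample was left out. Of the other clock factors 1 was called with the offsets, 1 with offsets and block and 0 to 1 when a sample was left out (Arntl2, without replicate 2 at 16 months).

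Whether same-numbered samples shared more than the number is not known here. Their deviations from the mean of the age correlated with r = 0.18, 0.0958 and 0.0351 across genes, and 5 of 6 samples correlated best with their own number. With the replicate block, Npas2 had a log2 fold change of 0.22 (adjusted P = 0.0388, quasi-likelihood test), and no other member changed its call under the block alone. Arntl, Clock and Ciart kept their sign and stayed uncalled in all 16 alternatives to the test. Per1 changed sign with the offsets (−0.0094) and with offsets and block (−0.0091), and ranged from −0.030 to 0.144 when a sample was left out, with the negative value without replicate 1 at 16 months. Tef ranged from −0.053 to 0.019 when a sample was left out. Size factors or upper quartile factors turned no member's direction.

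The difference in the clock index was −0.096 without Clock and 0.0021 without Per3, and ranged from −0.062 to 0.023 when a sample was left out, with the positive value without replicate 2 at 16 months. On simulated data with 3 samples per age, 70% of genes changed by 0.5 on the log2 scale were recovered. Smaller changes, the size of those of the members, were not simulated. Collection hour, age and base composition of the aged samples were not separated by the design, and the cause of the changed calls was not tested.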
